A study of Mus musculus with 38 samples.

Results

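Baiap2, Ncan, Gzma, St18, Ptprt, Gnal, Fam46c and Rgl1 are 8 of the 27633 genes counted in Inhba gonocytes, the germ cells of the fetal mouse testis. They were chosen by the steep rise of their transcript levels between embryonic day 13.5 (E13.5) and E15.5 in these same animals, so the rise itself is given as a description with no test. Gonocytes carrying an Oct4-Gfp reporter were sorted by FACS from the testes of single embryos, on a mixed C57/Bl6/129svJ background. All groups carried the reporter. Inhba encodes the subunit of activin A, and the Inhba animals were 3 wildtype (WT) and 4 knockout (KO) embryos at E13.5 and 4 WT and 4 KO embryos at E15.5. Inha encodes the inhibin alpha subunit, which in a dimer with an activin subunit inhibits activin A, and 2 further WT embryos, each with a KO littermate, came from the Inha line at E13.5. Titles and genotype fields of the records disagreed for 5 Inhba animals. Titles were followed throughout, but the genotype field gives KO for all 4 animals titled WT at E15.5 and WT for animal 928.1, titled KO at E13.5, so each comparison of Inhba KO with WT rests on the titles. Both knockouts lacked the gene in the whole embryo, so the somatic cells around the gonocytes were also mutant, and KO was compared with WT to ask how activin A availability bears on gonocyte transcripts.

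The 8 genes encode proteins of different kinds and are mostly known from other tissues. Ncan encodes neurocan, a chondroitin sulphate proteoglycan of the brain matrix, and Ptprt a receptor tyrosine phosphatase that mediates cell adhesion. Gnal encodes the G protein alpha subunit Golf, which couples odorant and dopamine receptors to adenylyl cyclase. Rgl1 encodes an exchange factor for Ral GTPases, and Baiap2 encodes IRSp53, which bends membranes and links Rac and Cdc42 to actin. St18 encodes a zinc finger transcription factor of the MyT family, Fam46c (now Tent5c) a poly(A) polymerase that lengthens mRNA tails, and Gzma granzyme A, a serine protease of cytotoxic lymphocytes. Between these ages male gonocytes leave the cell cycle and start to express genes of male differentiation and of the piRNA pathway, which silences transposons.

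Depth in the Inhba animals ran from 8466087 to 40600907 counts, and 3 counts correspond to 0.0739 to 0.354 cpm, reads per 1000000 reads of the animal. A germ cell list of 7 markers, among them Ddx4, Dazl and Pou5f1, summed to between 3225 and 4564 cpm in the Inhba animals. The lists for Sertoli cells, Leydig cells, mesenchyme, endothelium, macrophages, erythroid cells and glia each summed to 161 cpm or less. They were not level across groups, since macrophage markers summed to 2.37 to 5.32 cpm at E13.5 against 6.46 to 21.5 cpm at E15.5, and mesenchyme markers in WT to 3.00 to 12.1 cpm against 43.1 to 67.4 cpm, and their part in the results was not tested. Inhba lay between 0.0528 and 0.842 cpm in WT and between 0.0937 and 0.696 cpm in KO animals, below the study's detection limit of 2.4 cpm, and Inha between 0.0468 and 1.85 cpm. The targeted genes therefore could not check the genotype labels in sorted gonocytes, and neither was among the genes of the Inha table. In bulk samples fewer cells of a type and less RNA per cell cannot be told apart.

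Promoter sequences of 300 bases, from 250 bases before to 50 bases after an annotated start, were taken from RefSeq (GRCm38.p6) for 6 of the 8 genes. Those of Gzma and Ncan, which were close to 0 at E13.5, are shown beside those of Baiap2 and Rgl1, which were already detected, each 5′ to 3′ along its gene. Capitals mark the exact letters TATAAA of a TATA box, CCAAT of a CCAAT box or CACGTG of an E-box, on either strand and at any position. Other forms of these boxes were not searched.
Gzma, chr13:113100932-113101231, minus strand: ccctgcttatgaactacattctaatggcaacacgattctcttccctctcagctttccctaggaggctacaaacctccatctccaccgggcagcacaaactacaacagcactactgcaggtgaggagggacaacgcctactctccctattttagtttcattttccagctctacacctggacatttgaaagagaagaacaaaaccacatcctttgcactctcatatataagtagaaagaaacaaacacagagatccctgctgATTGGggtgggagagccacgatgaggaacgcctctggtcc
Ncan, chr8:70120795-70121094, minus strand: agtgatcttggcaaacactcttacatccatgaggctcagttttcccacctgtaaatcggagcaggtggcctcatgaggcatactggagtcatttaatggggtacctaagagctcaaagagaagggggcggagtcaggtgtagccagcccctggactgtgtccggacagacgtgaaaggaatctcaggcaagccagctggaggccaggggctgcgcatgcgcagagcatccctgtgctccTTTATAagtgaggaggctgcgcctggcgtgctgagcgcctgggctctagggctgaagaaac
Baiap2, chr11:119942842-119943141, plus strand: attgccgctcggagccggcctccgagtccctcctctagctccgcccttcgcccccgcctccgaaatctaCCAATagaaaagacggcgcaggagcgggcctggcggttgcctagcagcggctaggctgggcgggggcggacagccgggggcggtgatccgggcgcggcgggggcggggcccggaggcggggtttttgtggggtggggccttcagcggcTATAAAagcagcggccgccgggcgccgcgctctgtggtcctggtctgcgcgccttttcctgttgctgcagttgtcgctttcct
Rgl1, chr1:152766256-152766555, minus strand: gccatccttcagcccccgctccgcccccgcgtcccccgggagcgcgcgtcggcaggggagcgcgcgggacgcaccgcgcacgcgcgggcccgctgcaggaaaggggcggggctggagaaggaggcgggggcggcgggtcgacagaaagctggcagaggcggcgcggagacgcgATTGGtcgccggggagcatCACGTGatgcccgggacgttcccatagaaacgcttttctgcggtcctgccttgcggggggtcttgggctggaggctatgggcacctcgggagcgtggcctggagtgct

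The observed to expected CpG ratios of the Gzma and Ncan promoters, 0.306 and 0.381, lay below the median of 0.384 over 32851 mouse promoters, with 42.5% and 49.8% of all promoters lower still. The ratio was 0.924 for Baiap2, 0.991 for the start of Rgl1 shown, 1.06 for Ptprt and 0.923 for Fam46c, all above the upper quartile of 0.750. A second annotated start of Rgl1 had a ratio of 0.720. TATAAA was found in Baiap2, beginning 33 bases before the start, and on the reverse strand of Ncan, 11 bases before the start. Of all promoters 13.6% hold it. CCAAT was found in the promoters shown of Gzma, Baiap2 and Rgl1 and in that of Fam46c, against 37.4% of all promoters, and the E-box CACGTG in the start of Rgl1 shown, against 7.15%. The GC box GGGCGG occurred 7 times in Fam46c, 5 times each in Baiap2 and Ptprt, 3 times in the start of Rgl1 shown and 1 time in Ncan, and 35.7% of all promoters hold it. CAGAC, a short element bound by SMAD proteins, which carry activin signals, was found in Baiap2, in Ncan and at the second start of Rgl1, and in 49.6% of all promoters. Both strands were searched, and matches are descriptions of the letters only.

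At E13.5 the 8 genes fell into 2 sets. Ncan, Gzma, St18, Ptprt and Gnal lay under the detection limit in all 7 animals, whereas Baiap2, Fam46c and Rgl1 lay above it in all 7. Of the 5 under the limit, Ncan, Gzma and St18 were close to 0, at no more than 0.334, 0.0556 and 0.579 cpm. Ptprt lay between 0.870 and 1.68 cpm and Gnal between 1.16 and 2.38 cpm. Reads of Ncan, as of Ptprt and Gnal, were counted in every E13.5 animal. The description of the group as newly switched on thus fits only Ncan, Gzma and St18, by their levels close to 0. At E15.5 all 8 genes were above the limit in all 8 animals.

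**Figure D1:**
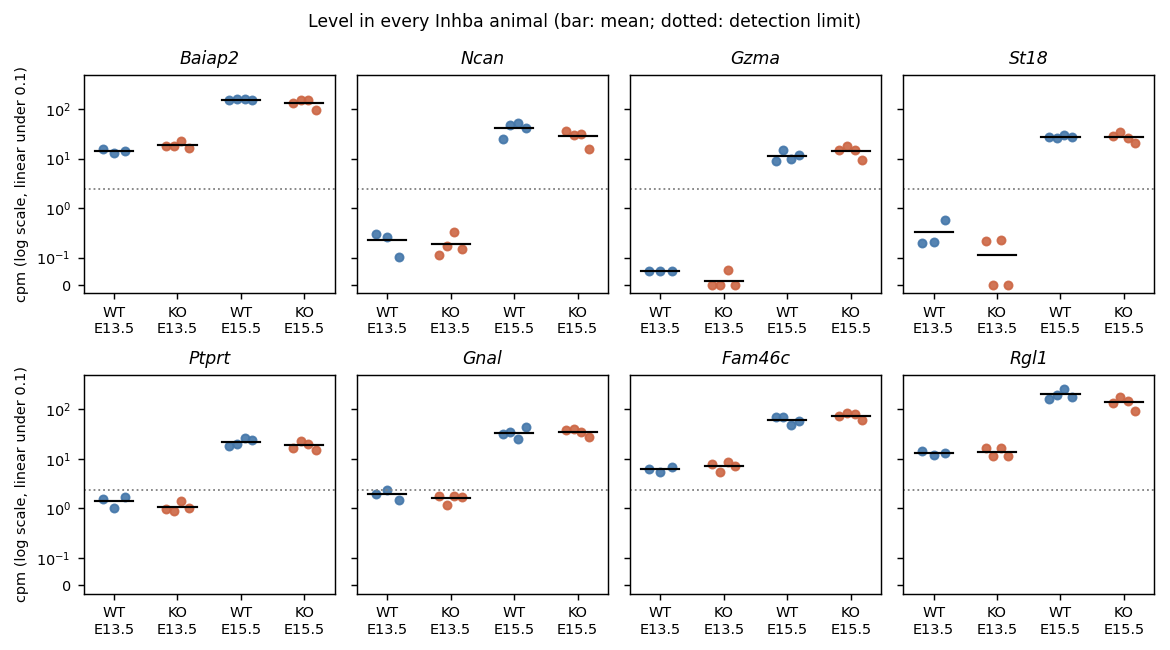
Level of each gene in every Inhba animal in cpm, on a log scale that is linear under 0.1 cpm. Points are animals, bars group means and the dotted line the detection limit of 2.4 cpm. Ncan, Gzma, St18, Ptprt and Gnal lie under the limit in all 7 E13.5 animals, and all 8 genes lie above it in all 8 E15.5 animals.

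Gzma (ENSMUSG00000023132, chromosome 13 of GRCm38, 113093825 to 113100981, minus strand) was nearest to absent at E13.5. A single read was counted in each of the 3 WT animals and in 1 KO animal, and none in the other 3 KO animals. At E15.5 its level was 8.79, 15.2, 9.73 and 11.8 cpm in the WT animals, and the KO animals stood at 15.001, 17.9, 14.6 and 9.51 cpm. Every E15.5 animal was far above every E13.5 animal, and both genotypes overlapped at E15.5. Over summed reads the rise was 211-fold in WT (95% exact counting interval 72.0 to 1024) and 1089-fold in KO (195 to 43038). These intervals cover counting error only and rest on 3 reads in WT and 1 in KO at E13.5.

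Ncan (ENSMUSG00000002341, chromosome 8, 70093085 to 70120873, minus strand) was at 0.303, 0.264 and 0.105 cpm in the WT animals at E13.5, and the KO animals stood at 0.111, 0.174, 0.334 and 0.152 cpm, from 2 to 6 reads each. At E15.5 it reached 25.4, 48.4, 53.6 and 42.2 cpm in WT animals, against 35.8, 30.1, 31.9 and 15.4 cpm in KO. Every E15.5 animal lay far above every E13.5 animal. The lowest E15.5 level was 83.9 times the highest E13.5 level in WT and 46.02 times in KO.

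St18 (ENSMUSG00000033740, chromosome 1, 6487231 to 6860940, plus strand) was at 0.202, 0.211 and 0.579 cpm in WT at E13.5. In KO it was at 0.221 and 0.223 cpm in 2 animals and had 0 reads in the other 2, where 3 reads would have given 0.174 and 0.152 cpm. At E15.5 its level was 27.1, 25.7, 30.7 and 27.3 cpm in the WT animals, against 28.1, 34.2, 25.8 and 20.9 cpm in KO. Baiap2 and St18 varied least of the 8 genes among E15.5 WT animals, with coefficients of variation of 3.61% and 7.71%, against 16.9% to 28.9% for the others. From summed reads the rise of St18 was 83.9-fold in WT (95% exact counting interval 53.6 to 139.6) and 261-fold in KO (132 to 605). These intervals cover counting error only and leave out the spread between embryos. Of 19 WT reads at E13.5, 11 came from animal 900.2, and the 8 KO reads came from 2 animals. Whether the rise differed between genotypes was not tested.

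Ptprt and Gnal were low but not absent at E13.5. Ptprt (ENSMUSG00000053141, chromosome 2, 161521990 to 162661147, minus strand) was at 1.57, 1.00 and 1.68 cpm in the WT animals, and KO animals stood at 0.997, 0.870, 1.39 and 1.01 cpm. At E15.5 it was at 18.1, 20.1, 26.4 and 23.9 cpm in WT animals, against 17.01, 23.4, 19.7 and 15.2 cpm in KO, and its mean was 15.6 times higher in WT and 17.6 times higher in KO than at E13.5. The genotypes of one age overlapped for this gene, and the ages did not.

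Gnal (ENSMUSG00000024524, chromosome 18, 67088216 to 67226792, plus strand) lay just under the limit at E13.5, at 1.97, 2.38 and 1.47 cpm in the WT animals, with KO animals at 1.77, 1.16, 1.78 and 1.72 cpm. At E15.5 its level was 31.8, 34.4, 25.3 and 44.3 cpm in WT animals, against 38.5, 40.4, 34.9 and 28.1 cpm in KO. The mean was 17.5 times higher in WT and 22.1 times higher in KO, with no overlap between ages. Mppe1, on the opposite strand, shares 852 exon bases with Gnal (7.63% of its exons) and reached at most 2.14 cpm at E15.5, and whether the counting used strand was not given in the sources used here.

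The other 3 genes were already detected at E13.5 and were the most abundant in cpm at E15.5. Baiap2 (ENSMUSG00000025372, chromosome 11, 119942763 to 120006782, plus strand) was at 15.4, 13.2 and 14.4 cpm in the WT animals at E13.5, with KO animals at 17.7, 18.04, 22.9 and 16.6 cpm. At E15.5 it was at 151, 161, 161 and 151 cpm in WT animals, against 135, 155, 152 and 97.2 cpm in KO. The E15.5 animals thus differed little apart from 1 KO animal, and the mean was 10.9 times higher than at E13.5 in WT and 7.17 times in KO.

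Rgl1 (ENSMUSG00000026482, chromosome 1, 152516760 to 152766351, minus strand) was at 14.8, 11.99 and 13.2 cpm in the WT animals at E13.5, with KO animals at 16.4, 11.7, 16.9 and 11.3 cpm. At E15.5 it was at 166, 199.5, 261 and 178 cpm in WT animals, against 136, 177, 149.7 and 91.2 cpm in KO. Its mean was 15.1 times higher in WT and 9.84 times higher in KO than at E13.5. At E15.5 KO animal 1052.2 lay within the WT range, and the other 3 KO animals lay below all WT animals.

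Fam46c (ENSMUSG00000044468, chromosome 3, 100451628 to 100489324, minus strand) was at 6.16, 5.39 and 6.95 cpm in the WT animals at E13.5, with KO animals at 7.86, 5.51, 8.74 and 7.19 cpm. At E15.5 it was at 69.3, 70.1, 47.98 and 57.99 cpm in WT animals, against 72.2, 83.3, 81.96 and 60.3 cpm in KO. KO animal 892.2 lay within the WT range, and the other 3 KO animals lay above all WT animals. The rise of the means was 9.95-fold in WT and 10.2-fold in KO. No threshold was given for the choice of the 8 genes, so genes just outside it could not be set beside them.

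Many other genes also differed between the ages. A gene was called where the quasi-likelihood test of edgeR gave an adjusted p (Benjamini-Hochberg) under 0.05 with a change of over 1.5-fold. In WT 9555 of 15380 genes were called (62.1%), of which 34% of all tested were higher at E15.5 and 28.1% lower. In KO 7974 of 14676 were called (54.3%), 29.1% higher and 25.2% lower. All 8 genes were higher at E15.5 without overlap in both genotypes, as were 43.4% of all genes in WT and 31.6% in KO, and the choice of the genes fixed this. By fitted log2 fold change they ranked from 129 (Gzma) to 1727 (Fam46c) in WT and from 6 (Gzma) to 1152 (Baiap2) in KO. All 11 listed genes of male germ cell differentiation also rose in both genotypes, among them Dnmt3l and Piwil4, a piRNA-binding protein, with log2 fold changes from 1.13 to 6.88 in WT and from 1.33 to 7.46 in KO. The highest value in each genotype was that of Dnmt3l, which lay at 1.67 cpm or less in every E13.5 animal. Dnmt3l had thus passed the filter only through its E15.5 level, so it could only be called higher.

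Per kilobase of exon, Baiap2 and Rgl1 were the most abundant of the 8 in E15.5 WT gonocytes, at 31.2 ± 1.13 and 29.1 ± 6.12 cpm per kb (mean ± SD, n = 4), and their ranges of mean ± SD overlapped. Gzma and Fam46c came next at 11.3 ± 2.82 and 10.1 ± 1.72 cpm per kb, which overlapped too. Ncan at 5.90 ± 1.70 and St18 at 4.29 ± 0.330 cpm per kb also overlapped, followed by Gnal at 3.04 ± 0.706 and Ptprt at 1.76 ± 0.297 cpm per kb, each apart from its neighbours. In E15.5 KO gonocytes the order was the same except that St18, at 4.22 ± 0.854, and Ncan, at 3.93 ± 1.24 cpm per kb, changed places.

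Among E15.5 animals the 8 genes did not vary as one. KO animal 892.2 had the lowest level of 5 genes and was among the lowest 2 for 7, and its levels were 45.4% to 86.6% of the medians over the 8 animals. WT animal 1064.2 had the highest level of Ncan, Ptprt and Rgl1 and the lowest of Gnal and Fam46c. WT animal 941.3 had the lowest Gzma and the second lowest Ncan. Of the 11 listed genes of male germ cell differentiation, such as Dnmt3l, a cofactor of DNA methylation, 892.2 had the lowest level of 7 and the highest of Nanos2 and Tdrd5. The part of such differences between animals in the levels of the 8 genes was not tested.

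**Figure D2:**
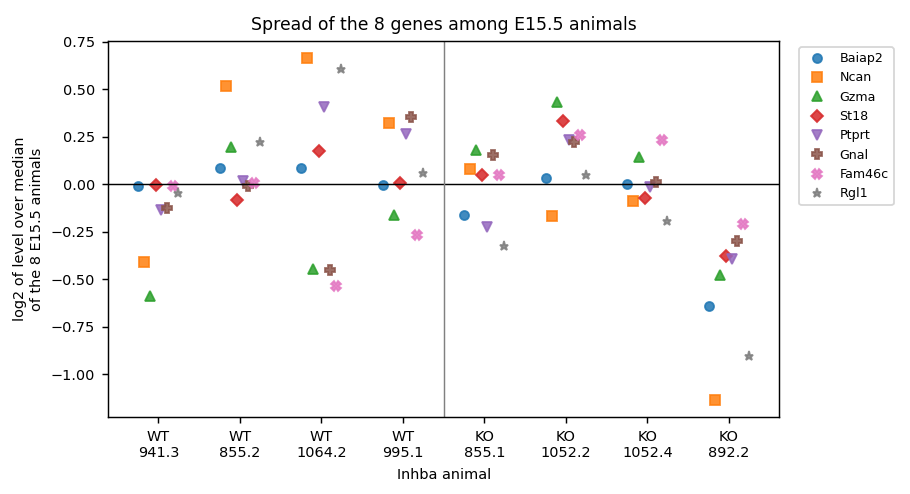
Level of each of the 8 genes in every E15.5 Inhba animal as the log2 of its ratio to the median over the 8 animals. Symbols stand for genes, with 4 WT animals on the left and 4 KO animals on the right. All 8 symbols of KO animal 892.2 lie below 0, and those of WT animal 1064.2 lie on both sides.

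Loss of Inhba moved none of the 8 genes past the threshold at E15.5. In the edgeR test 0 of 8 were called, and over all genes 1 of 15209 was (0.00658%). DESeq2 and limma-voom also called none of the 8. At an unadjusted p under 0.05 in edgeR there were 3 of the 8, Rgl1, Fam46c and Ncan, and 10.8% of all genes. Of the 8, 4 had higher and 4 lower fitted levels in KO, with a median log2 fold change of -0.057 against -0.0051 over all genes. The WT and KO animals overlapped for every one, while 1.08% of all genes were higher and 2.77% lower in KO without overlap.

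Among the signalling genes Rgl1 had the smallest unadjusted p of the 8, with a log2 fold change of -0.48 ± 0.18 (SE) from WT to KO and an adjusted p of 0.454 in the edgeR test. Baiap2 stood at -0.15 ± 0.12 and Gnal at 0.13 ± 0.18, with adjusted p of 0.596 and 0.773 in edgeR. For the matrix and surface genes, Ncan stood at -0.53 ± 0.25 and Ptprt at -0.17 ± 0.18, with edgeR adjusted p of 0.463 and 0.698. None of these differences passed the threshold, and each rested on overlapping groups. Fam46c stood at 0.34 ± 0.15 and Gzma at 0.38 ± 0.24, with edgeR adjusted p of 0.461 and 0.525. St18 was closest to no difference, at 0.036 ± 0.27 with an adjusted p of 0.963 in edgeR. Without KO animal 892.2 the log2 fold changes of Baiap2, Ncan and Rgl1 were -0.040, -0.34 and -0.34, and without WT animal 941.3 those of Ncan and Rgl1 were -0.71 and -0.56. Without KO animal 1052.2 Rgl1 stood at -0.61, and none of these was called. The E15.5 levels of these animals took part in the choice of the genes.

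**Figure D3:**
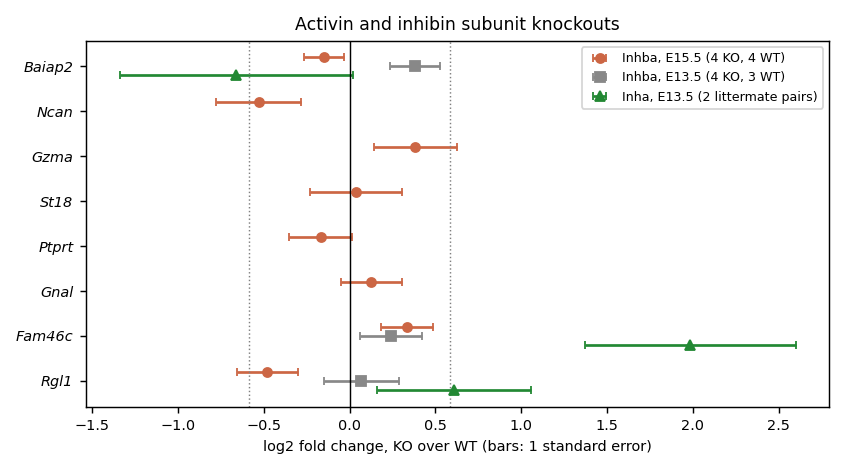
Fitted log2 fold change from WT to KO for each gene in the 3 comparisons, with bars of 1 standard error. Dotted lines mark a change of 1.5-fold in either direction. In the Inhba comparisons all values lie within these lines, and in the Inha comparison all 3 lie outside them, Fam46c at 1.98, Rgl1 at 0.61 and Baiap2 at -0.66, none of them called.

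At E13.5 only Baiap2, Fam46c and Rgl1 passed the filter for this comparison. Of the 3, 0 were called by edgeR, DESeq2 or limma-voom. Over all 12739 genes edgeR called 0 (0%), with 2.02% at an unadjusted p under 0.05, and DESeq2 called 8 and limma-voom 1. Baiap2 was higher in each of the 4 KO animals than in any WT animal, with means of 18.8 ± 2.80 cpm (SD, n = 4) in KO and 14.3 ± 1.08 cpm (n = 3) in WT, and 2.02% of all genes were higher in KO without overlap. Its log2 fold change was 0.38 ± 0.15 (SE), with an unadjusted p of 0.0184 and an adjusted p of 1.00 in edgeR. Without KO animal 928.1, whose genotype field says WT, it was 0.40 ± 0.16. Counted as WT, that animal would make the groups overlap. For 4 marker lists of other cells the sums were also higher in every KO than in any WT animal at this age. The sums for Sertoli cells, endothelium, glia, neurons, and natural killer and T cells overlapped. Mesenchyme markers summed to 15.2 to 29.3 cpm in KO against 3.00 to 12.1 cpm in WT, erythroid markers to 6.70 to 11.96 against 3.01 to 3.89 cpm, Leydig markers to 8.06 to 11.8 against 2.59 to 5.21 cpm and macrophage markers to 3.94 to 5.32 against 2.37 to 3.10 cpm. With 928.1 counted as WT, the Leydig and macrophage sums would overlap too, and the mesenchyme and erythroid sums would not. The part of such cells in the Baiap2 difference was not tested. At E15.5 the log2 fold change of Baiap2 had the opposite sign, and the difference between the ages was not tested. Fam46c and Rgl1 stood at 0.24 ± 0.18 and 0.068 ± 0.22 at E13.5, with overlapping groups.

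Loss of Inha, which removes an inhibitor of activin A, was measured at E13.5 only. Fam46c, Rgl1 and Baiap2 are among the 9798 genes of that table, and the other 5 genes were not analysed there. Fam46c stood at 2.75 and 5.18 cpm in the WT animals and at 9.15 and 27.5 cpm in their KO littermates, in the same order of pairs. It was higher in the KO of both pairs. With the littermate pair as a block its log2 fold change was 1.98 ± 0.62 (SE), rank 25 of 9798, with an adjusted p of 0.141 in edgeR, so that it was not called. Without the block the value was 2.09 ± 0.68, with an adjusted p of 0.997 in edgeR. Leaving out 1 animal at a time, also without the block, gave 1.13 (without KO animal 633.2) to 2.67 (without KO animal 1516.1).

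Rgl1 stood at 18.001 and 10.4 cpm in the Inha WT animals and at 21.5 and 23.3 cpm in the KO littermates, a log2 fold change of 0.61 ± 0.45 with an adjusted p of 0.722 in edgeR. Baiap2 stood at 7.53 and 11.5 cpm in the WT animals, with 4.36 and 9.02 cpm in the KO littermates, a log2 fold change of -0.66 ± 0.68 with an adjusted p of 0.845 in edgeR. Thus 0 of 3 genes were called by edgeR, DESeq2 or limma-voom, as against 35 of 9798 genes (0.357%) by edgeR, and 1 had an unadjusted p under 0.05 against 9.32% of all. Fam46c and Rgl1 were higher in KO without overlap, which 22.3% of all genes were with 2 animals a group. The Inha and Inhba animals were sequenced and filtered apart, so their cpm levels were not compared.

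The relatives and partners of the 8 genes were also tested between ages. The lists held 81 genes, of which 76 had counts. In WT 62 were tested, of which 24 rose, 14 fell and 24 were not called, beside 34% higher and 28.1% lower of all genes. In KO 61 were tested, of which 21 rose and 14 fell, beside 29.1% and 25.2%. The median log2 fold change over the lists was 0.076 in WT and 0.18 in KO, against 0.049 and 0.018 over all genes. Of the genes that rose, 12 in WT and 9 in KO had passed the filter only through their E15.5 level, so that they had to be higher at that age. In the comparisons of KO with WT, edgeR called 0 of 52 relatives in Inhba at E13.5, 0 of 63 in Inhba at E15.5 and 0 of 49 in Inha, with an unadjusted p under 0.05 for 1, 8 and 4. Over all genes the shares called were 0%, 0.00658% and 0.357%, and those with an unadjusted p under 0.05 were 2.02%, 10.8% and 9.32%.

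**Figure D4:**
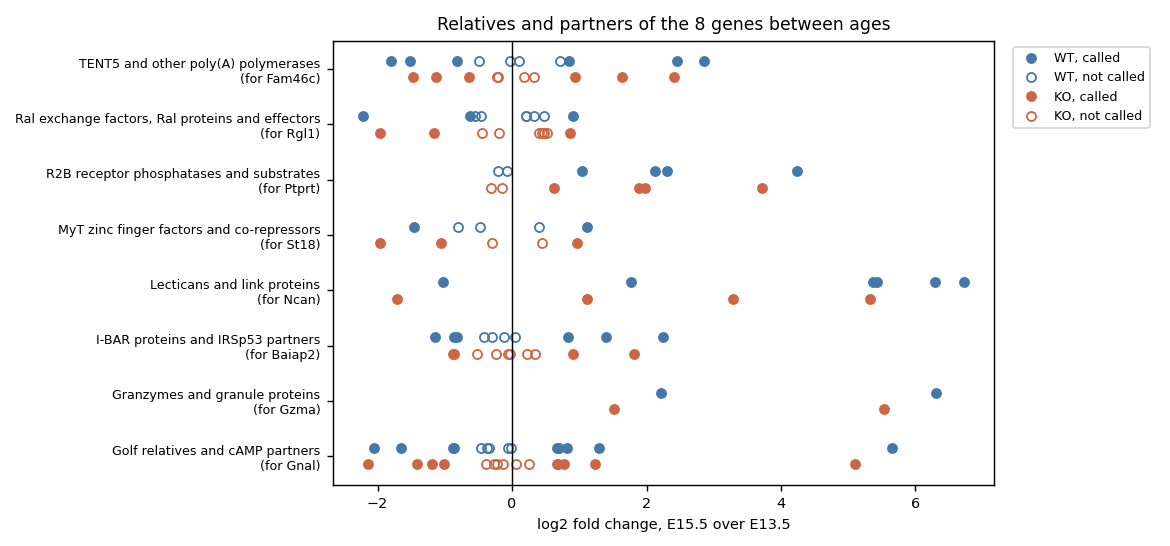
Log2 fold change from E13.5 to E15.5 of each tested relative or partner, by list, for WT and KO gonocytes. Filled points were called and open points were not. Of the genes that rose, 12 in WT and 9 in KO had passed the filter only through their E15.5 level. Of the 6 genes tested for Ncan in WT 5 rose and 1 fell, of the 6 for Ptprt 4 rose, and the lists for Gnal, Baiap2 and Fam46c hold called genes on both sides of 0.

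The lecticans, the family of Ncan, changed in both directions. Acan, aggrecan of cartilage, rose from 0.155 ± 0.0485 (SD, n = 3) to 14.7 ± 7.27 cpm (n = 4) in WT and from 0.191 ± 0.216 to 8.44 ± 2.75 cpm in KO (n = 4 each). Bcan, brevican of the brain, rose from 0.121 ± 0.109 to 6.36 ± 2.02 cpm in WT, whereas Vcan, versican, the most abundant of the list, fell from 30.8 ± 7.01 to 17.5 ± 7.49 cpm, with log2 fold changes of 5.43 ± 0.81 and -1.03 ± 0.29 (SE). Both were also called in KO, at 3.29 ± 0.64 and -1.72 ± 0.28. Tnc, tenascin-C, rose in both genotypes, and Tnr and the link protein gene Hapln4 rose in WT and were not tested in KO. The 5 genes that rose in WT and the 3 in KO had passed the filter only through their E15.5 level, so they could be called in that direction alone.

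Of the genes listed for Gzma 2 were tested, and both rose, but both had passed the filter only through their E15.5 level. Gzmk, another granzyme, was at 3.74 ± 3.06 cpm in E15.5 WT gonocytes (SD, n = 4) and 1.68 ± 1.29 cpm in KO, and Srgn, the proteoglycan serglycin of secretory granules and the most abundant of the list, rose from 1.18 ± 0.240 to 6.41 ± 1.13 cpm in WT. Gzmb and Prf1, granzyme B and the pore-forming perforin, lay at or under 0.281 and 0.605 cpm in every Inhba animal. Natural killer and T cell markers, 9 of 11 listed having counts, summed to between 0.406 and 1.11 cpm at E13.5, and at E15.5 the sum was 6.23 to 50.7 cpm. Of this sum Cd2, an adhesion molecule, held 5.48 to 40.7 cpm at E15.5. Cd3e lay between 0.134 and 3.55 cpm at that age and Il2rb between 0.187 and 2.53 cpm, and both were at 0 cpm in every E13.5 animal. Ptprc (CD45) lay between 0 and 1.92 cpm at E15.5 and Ncr1 between 0 and 0.421 cpm. The sum was highest in WT animal 1064.2, where Gzma was lower than in 5 of the other E15.5 animals. It was lowest in KO animal 892.2, at 6.23 cpm, and next lowest in WT animal 941.3, at 11.5 cpm. Gzma was lowest in these 2 animals too, at ranks 7 and 8 of the 8 E15.5 animals. Of the 11 listed genes of male germ cell differentiation, 892.2 was among the lowest 2 animals for 9 and had the highest level of 2. Animal 941.3 was among the lowest 2 for 5. The part of natural killer and T cells, or of germ cell stage, in the Gzma level was not tested.

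The phosphatases of the Ptprt family did not move alike. Ptpru rose from 0.676 ± 0.210 to 15.1 ± 4.92 cpm in WT and Ptprm from 3.10 ± 0.567 to 17.96 ± 2.11 cpm, at log2 fold changes of 4.24 ± 0.42 and 2.30 ± 0.22 (SE), and both rose in KO too. Ptprk was not called, at -0.082 ± 0.29. The PTPRT substrates Stat3, a transcription factor and the most abundant of the list, and Pxn, paxillin of focal adhesions, rose in both genotypes, Stat3 from 12.7 ± 1.22 to 64.96 ± 18.3 cpm in WT. Of 6 genes tested 4 rose and none fell in either genotype. Among those that rose, Ptpru had passed the filter only through its E15.5 level, so it could only be called higher.

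The G protein genes went both ways. Gnas, the closest relative of Gnal, was not called, at 2.37 ± 0.178 and 2.19 ± 0.840 cpm in WT at the earlier and later age. Both means lay just under the detection limit, so the comparison says little about Gnas. Gnao1, the Go alpha subunit abundant in neurons, rose from 0.794 ± 0.322 to 47.4 ± 16.2 cpm in WT and from 0.955 ± 0.580 to 35.1 ± 12.04 cpm in KO. Gnao1 had passed the filter only through its E15.5 level, so it could only be called higher. Gnai1, an inhibitory alpha subunit, fell from 53.1 ± 10.6 to 14.9 ± 1.64 cpm in WT and also fell in KO. Gna13, Gnaz, the beta subunit gene Gnb1, the most abundant of the list, and Ric8b, a chaperone of Golf, rose in both genotypes. Gnai3 and Adcy5, an adenylyl cyclase that Golf activates, fell in both. Gnai2 was called lower in WT, and Gng13, which was not tested in WT, in KO.

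Among the Ral genes, Rgl2, a paralog of Rgl1, fell from 38.8 ± 2.24 to 9.71 ± 1.57 cpm in WT, and Ralgds, another Ral exchange factor, rose from 66.2 ± 4.15 to 144 ± 8.60 cpm. Both were called in KO as well, with log2 fold changes of -1.97 ± 0.16 and 0.86 ± 0.14 (SE). Ralb fell in KO and the exocyst gene Exoc8 in WT. Rala, a Ral GTPase, was not called in either genotype.

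Of the genes listed for Baiap2, its paralog Baiap2l1 rose from 2.25 ± 0.0762 to 12.5 ± 1.25 cpm in WT and Enah, an actin elongation factor and the most abundant of the list, from 272 ± 12.7 to 567 ± 20.9 cpm. Both rose in KO, whereas Eps8 rose in WT and stood at 0.35 ± 0.31 (log2, SE) in KO. In WT Baiap2l1 had passed the filter only through its E15.5 level, so there it could only be called higher. Mtss1, another I-BAR protein gene, and Rac1, a GTPase that binds IRSp53, fell in both genotypes, and Wasf1 fell in WT. Of the MyT family Myt1l rose from 7.54 ± 0.908 to 19.1 ± 1.27 cpm in WT and also rose in KO. The co-repressor gene Sin3b fell in both, Hdac1 fell in KO, and Sin3a, the most abundant of that list, was not called.

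The TENT5 poly(A) polymerase genes did not all move. Fam46a rose from 0.989 ± 0.199 to 8.41 ± 4.56 cpm in WT and Fam46d from 1.78 ± 0.209 to 11.5 ± 2.97 cpm, and both rose in KO, whereas Fam46b was not called, at 0.72 ± 0.39 (log2, SE) in WT. In both genotypes Fam46a and Fam46d had passed the filter only through their E15.5 level, so they could be called in that direction alone. Papola, the canonical nuclear poly(A) polymerase and the most abundant of the list, fell from 607 ± 23.1 to 204 ± 4.45 cpm in WT. Papola, Papd4 and Plk4, a kinase that binds FAM46C protein, fell in both genotypes, and Papd7 rose in both.

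Summed neuronal markers, like Ncan, Gnal and St18, were higher at E15.5. The summed level of the 9 markers lay between 5.44 and 10.99 cpm in the younger animals, against 17.9 to 91.4 cpm in the older. Rbfox3, Snap25 and Syt1 were at 4.92 to 35.7, 3.37 to 16.8 and 2.01 to 14.9 cpm at E15.5, whereas Tubb3 reached 3.21 cpm and Dcx 0.701 cpm at most. The sum was highest in WT animal 1064.2 and lowest in KO animal 892.2, which had the highest and lowest Ncan, and also the highest and lowest Ptprt and Rgl1. By level among the 8 E15.5 animals, from 1 for the highest, St18 ranked 2 in 1064.2 and 8 in 892.2, with its highest level in KO animal 1052.2. Gnal ranked 8 in 1064.2 and 7 in 892.2. Of the 11 listed genes of male germ cell differentiation, 1064.2 had the highest level of 4 and the lowest of 2. KO animal 892.2 had the lowest level of 7 and the highest of 2. The part of neuronal RNA, or of germ cell stage, in the levels of Ncan, Ptprt, Rgl1, St18 and Gnal was not tested.

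Genes next to the 8 were examined to see whether whole regions moved. Of the nearest tested genes on either side, 16 in WT, 4 rose and 5 fell, and of 14 in KO 2 rose and 4 fell, beside the shares of all genes given above for the relatives. All of those that rose were under the detection limit in every E13.5 animal of their genotype and were tested only through their E15.5 level. The rises lay beside 3 genes. Cdc20b, a gene of multiciliated cells 2.63 kb from the 3′ end of Gzma, rose from 0.0704 ± 0.122 to 11.8 ± 2.97 cpm in WT (SD, n = 3 and 4) and from 0.0936 ± 0.112 to 8.40 ± 1.79 cpm in KO. Gzmk lies on the other side of Gzma, 70.6 kb away, and Hapln4 lies 2.22 kb from the 3′ end of Ncan. Gm12474, a long noncoding RNA that starts 0.340 kb from Fam46c on the opposite strand, rose from 0.815 ± 0.0495 to 3.16 ± 0.630 cpm in WT.

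Elsewhere no neighbour was called higher. Arpc5, an actin-nucleating complex gene that begins 0.191 kb from the start of Rgl1 on the opposite strand, was at 77.4 ± 9.04 cpm in the younger and 76.997 ± 6.68 cpm in the older WT animals and was not called in either genotype. Chmp6 beside Baiap2, Srsf6 beside Ptprt and Pmaip1 beside Gnal fell in both genotypes, Gm11448 beside Ptprt fell in KO, and Impa2 beside Gnal and Tsen15 beside Rgl1 fell in WT. Cep131, Rfxank, Gm19026, Pcmtd1 and Gdap2 were not called in either genotype. Some had an adjusted p under 0.05 in edgeR but a change short of 1.5-fold. By log2 fold change these were Cep131 at 0.55 in WT, Gm19026 at 0.55 in KO, and Gdap2 at 0.45 in WT and 0.53 in KO. Pcmtd1 was lower in the same way, at -0.52 in WT.

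**Figure D5:**
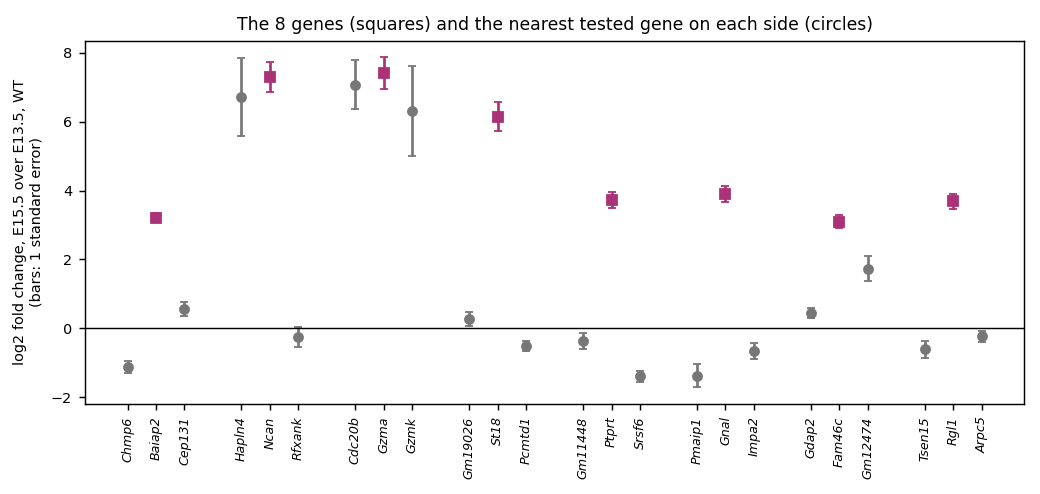
Log2 fold change between the ages in WT gonocytes for each of the 8 genes (squares) and the nearest tested gene on each side (circles), with bars of 1 standard error. For genes close to 0 at E13.5, such as Gzma, the fitted value depends on the prior count and is no exact fold. Circles stand high on both sides of Gzma and on 1 side of Ncan, and near or below 0 beside Ptprt, Gnal and Rgl1.

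The genes with the most similar profiles over the 15 Inhba animals were found by Pearson correlation of log2 cpm, as a description. The 15 animals form 2 age clusters, so high values are common, and 2694 of 15617 genes (17.3%) had an r above 0.9 with the mean profile of the 8. Among themselves the 8 genes had r from 0.963 to 0.993, which their choice by the rise in these same animals largely fixed. Highest with the mean profile were Drc1, a gene of the dynein regulatory complex of motile cilia (r = 0.996), 1700025F24Rik, Ctag2, Tktl1, a transketolase-like gene, and Sh3kbp1, an adaptor of receptor endocytosis. The level of Drc1 went from 0.483 ± 0.119 to 86.6 ± 8.82 cpm in WT (SD, n = 3 and 4), and Tktl1 from 6.58 ± 1.73 to 166 ± 13.2 cpm. By single gene the closest were Sh3kbp1 for Baiap2, 2210010C04Rik for Ncan, Ctag2 for Gzma and Gnal, Tktl1 for St18, the synaptic vesicle gene Sv2b for Ptprt, the kinase-anchoring gene Akap13 for Fam46c and Ankrd45 for Rgl1, with r from 0.990 to 0.996.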

How the data were processed

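RNA of Oct4-Gfp-sorted gonocytes from 19 embryos (38 sequencing records, 2 per animal, in a single column per animal) was analysed. Inhba and Inha libraries came from different sequencing runs. The authors deposited unnormalised counts for each gene, obtained with STAR 2.5.2b on GRCm38 and featureCounts of Subread 1.5.2. The authors excluded 1 E13.5 WT gonocyte sample as an outlier, which they judged possibly contaminated or swapped. The Inha table held only genes of at least 2 cpm in 2 animals and no mitochondrial genes, so its totals are not the full depth. RNA was amplified before library preparation, and intervals cover counting error only. The genotype field contradicted the titles for 5 animals (928.1, 941.3, 855.2, 1064.2 and 995.1), and titles were followed. The group sizes in a figure legend of the study fit the field for 928.1 and the titles at E15.5. With crossed labels in these animals the KO against WT values would not hold.

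Cpm were computed here over all genes of an animal. Tests used the robust quasi-likelihood test of edgeR 4.0.16 with TMM (R 4.3.3). All 15 Inhba animals entered one fit over genes above 2.4 cpm in at least 2 animals compared, and Inha animals another with the littermate pair as a block. A call needed an adjusted p under 0.05 and a change of over 1.5-fold. The pairing comes from the record titles and the study's methods, and deviations of littermates had r = 0.256. Replicates are embryos, and the Inhba fit treated them as independent although 855.1 and 855.2, and 1052.2 and 1052.4, share a number stem. Animals titled as Inha littermates also share such a stem. Whether the Inhba animals that share one are littermates is not given in the sources used here. Alternatives included DESeq2 1.42.0, limma-voom (limma 3.58.1), other filters and size factors, and leaving out each animal. Positions and exon lengths came from GENCODE M21. The fit was tested on simulated data. The 8 genes and the gene lists were chosen with earlier results of these data known. Named genes are the 8, called relatives and the most abundant of each list, nearest tested neighbours, genes of closest profile, the targeted genes and 11 differentiation genes. The differentiation genes are given as a group, and not every gene that this rule names is reported here. Gzmb, Prf1, Gnas, Ptprk, Fam46b, Rala and marker genes outside this rule were named after their values were seen.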

Additional observations from a re-analysis of the deposited data

Results flagged for a closer look

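Of 24 gene and group combinations with 4 animals, 2 had an animal far from the other 3, and chance alone marks about 1 in 20 such groups. Gzma stood at 0.0556 cpm, a single read, in KO animal 696.6 at E13.5, with no reads in the other 3 KO animals. Any single read beside 3 animals at 0 is marked in this way, so it says nothing about that animal. Gnal stood at 1.16 cpm in KO animal 832.1 at E13.5, against 1.72 to 1.78 cpm in the other 3.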

How the results depend on the processing

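Under every alternative run, 0 of the 8 genes were called between KO and WT in any comparison, leaving out each animal included, with a lowest adjusted p of 0.0992 for Fam46c in Inha without 1 KO animal and without the block (0.0992 to 1.00 over animals left out). Signs of 3 values near 0 turned when 1 animal was left out. Gnal at E15.5 ranged from -0.0039 (without WT animal 1064.2) to 0.26, St18 at E15.5 from -0.085 (without KO animal 1052.2) to 0.12, and Rgl1 at E13.5 from -0.022 (without KO animal 928.1) to 0.15, with -0.0013 without WT animal 803.2. Rises resting on few reads moved. In KO the fitted rise of Gzma was 11.23 on the log2 scale without animal 696.6 (9.43 with it), and that of St18 was 8.35 without animal 928.1 and 8.30 without 696.6 (7.79 with both). In WT that of St18 was 6.80 without animal 900.2 (6.14 with it). Called relatives numbered 35 to 40 in WT and 31 to 37 in KO with animals left out (38 and 35 with all). Of 474 values under alternatives 466 were counted as unchanged, 4 as moved and 4 as reversed in sign. For a gene's KO against WT value, unchanged meant the same sign and the same side of the threshold. For a number of called genes it meant within 1.5-fold of the main number. For a rise it meant the same sign and a shift smaller than the spread between animals.

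Counts over all genes depended more on the tool. At E15.5 edgeR called 1 gene and DESeq2 25, and 1 to 3 were called with animals left out. At E13.5 the numbers were 0 for edgeR, 8 for DESeq2, 1 for limma-voom, 2 with the animals of that age alone and up to 3 with animals left out. For Inha they were 35 with the littermate pair as a block, 12 with DESeq2, 0 without the block and 0 to 22 with animals left out. Without a filter 14908 genes were called between ages in WT (9555 with it) and 12094 in KO (7974 with it). Where an Inha arm was left with 1 animal, that animal was assumed to vary like the others. With 0 or 1 reads of Gzma and 2 to 6 of Ncan per E13.5 animal, a difference between genotypes in these genes was not detectable at this depth.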
